A study of Homo sapiens with 52 samples.

Results

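MDA-MB-231, an established human breast cancer cell line that the study treats as claudin-low, was reverse transfected with siNRP1#5, a small interfering RNA against NRP1, or with the non-targeting siNT. Both siRNAs were used at 20 nM with Lipofectamine RNAiMAX, and RNA was taken after 72 hrs. The 2 groups were chosen by their sample labels and hold 3 samples each, that is 6 of the 52 samples in the series and 6 of the 18 from this cell line. Poly(A) RNA was sequenced as stranded libraries. All 6 cultures carried the transfection reagent and an siRNA, and no untransfected culture enters the comparison. Where useful, siNRP1#5 is set beside siNRP1#3 (a second siRNA, same dose and time, 3 samples), beside the lentiviral shNRP1#5 and shNT in the same cell line (puromycin-selected, harvested at 48 hrs, 6 samples in all) and beside siNRP1#5 in SUM159PT and HS578T, 2 other breast cancer lines. The study calls the replicates independent biological ones without saying whether transfections were done on separate days, so p-values measure the spread between the samples used. In the main tests of gene counts that spread was estimated over all 18 samples of this cell line, shRNA groups included. For the shRNA groups the study collected successive passages of the transduced cells as replicates, so their spread may not cover separate transductions. A further shRNA against NRP1 in this cell line, shNRP1#3 (puromycin-selected, harvested at 48 hrs, 3 samples), entered the fits only. Its values are not shown.

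NRP1 encodes neuropilin-1, a membrane protein that binds class 3 semaphorins and vascular endothelial growth factors together with plexins and VEGF receptors. Shorter transcripts give soluble forms that lack the membrane anchor. An siRNA is loaded into Argonaute, whose guide strand cleaves fully paired transcripts, and the guide can also lower transcripts that pair only with its bases 2 to 8, the seed, as a microRNA does.

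The siNRP1#5 sequence lies in the coding part of exon 4 of NRP1-206, at chr10:33263779-33263797 of GRCh38 on the minus strand. It is present in 9 of 14 annotated NRP1 transcripts, among them all 4 transmembrane and all 5 soluble ones, whereas siNRP1#3 (exon 15, chr10:33185638-33185656) is present in 4, all of them transmembrane. The site and the guide strand are shown because the seed returns later in the results. Capitals mark guide bases 2 to 8 and the 7 bases in the site that pair with them. Overhanging bases of the duplex are not included.
siNRP1#5 site: cagccttgaatGCACTTAt
siNRP1#5 guide: aUAAGUGCauucaaggcug
siNRP1#3 site: taaccacatttCACAAGAa
siNRP1#3 guide: uUCUUGUGaaaugugguua

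Expected counts over genes added up to between 37007132 and 49432014 per sample, and the 10 most abundant genes held 5.47 to 6.81% of them. TMM scaling factors were 0.844 to 0.975 with siNRP1#5 and 0.960 to 0.990 with siNT. Of the markers of claudin-low cells, VIM, CD44, ITGA6, ZEB1 and SPARC were detected in all 6 samples, with VIM at 1941 to 2504 TPM (length- and depth-scaled transcript abundance), and ESR1 and PGR stayed at or under 0.21 TPM. CDH1 stayed at or under 3.33 TPM and CLDN3 at or under 11.1 TPM. CLDN4 was at 154 to 226 TPM, CLDN7 at 19.1 to 61.5 TPM, EPCAM at 21.1 to 35.2 TPM and ERBB2 at 15.9 to 34.2 TPM, each detected in all 6 samples. The study names CLDN3, CLDN4 and CLDN7 as low in claudin-low cells, and no cells of another subtype were analysed here to compare levels with.

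NRP1, the target, had 3.67, 2.69 and 2.10 CPM (counts scaled to the TMM-normalised library size) in the siNRP1#5 samples and 73.1, 81.1 and 97.0 CPM in the siNT samples. Every siNRP1#5 sample was far below every siNT sample, and 3.37% of the mean siNT level was left. The log2 fold change was -4.88 (SE 0.18, n = 3 per group, edgeR quasi-likelihood test with Benjamini-Hochberg adjustment, adjusted p = 1.84e-12). The counts behind the lowest values were 158, 90 and 77 expected counts. With siNRP1#3 NRP1 had 46.5, 54.3 and 54.2 CPM, and the direct test put siNRP1#5 lower by a log2 fold change of -4.18 (adjusted p = 1.03e-11). With the shRNA of the same sense sequence NRP1 had 83.8, 101 and 100 CPM against 209, 193 and 188 CPM with shNT, a log2 fold change of -1.05. The change with siNRP1#5 was the larger of the pair (adjusted p of the difference 8.14e-09, edgeR).

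**Figure D1:**
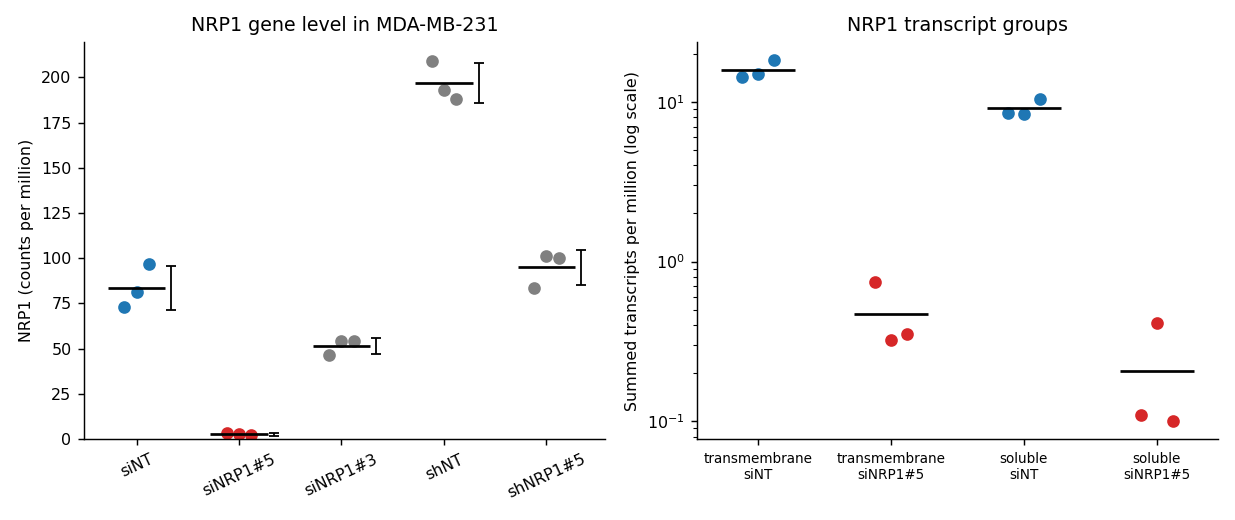
NRP1 in single samples. Left: NRP1 level in CPM in 5 groups of MDA-MB-231, 3 points per group, with the mean (line) and SD (bar). Right: summed TPM (log scale) of the 4 transmembrane and the 5 soluble NRP1 transcripts with siNT and siNRP1#5, with the mean as a line. All 3 siNRP1#5 points lie below all siNT points in both panels, for the transmembrane sum at 0.32 to 0.74 TPM against 14.3 to 18.2 TPM.

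Both kinds of NRP1 transcript were lower. The 4 transmembrane transcripts together had 0.74, 0.32 and 0.35 TPM with siNRP1#5 and 14.3, 14.9 and 18.2 TPM with siNT, so 2.97% was left. The 5 soluble transcripts had 0.11, 0.41 and 0.10 TPM against 8.47, 8.42 and 10.4 TPM, and 2.27% was left. On log2(TPM + 0.1) the differences were -4.87 and -5.04, with an exact two-sided permutation p of 0.1 for each, the smallest p that 3 against 3 samples can give. The soluble share of NRP1 was 26.4% ± 24.2 (SD, n = 3) with siNRP1#5 and 31.6% ± 2.47 with siNT (exact permutation p = 0.7). At the low level left by siNRP1#5 that share was set by few counts, and no difference in it was detectable at this depth. The main transmembrane transcript, NRP1-206, had 0.56, 0.32 and 0.35 TPM against 12.0, 13.4 and 16.6 TPM. The main soluble transcript, NRP1-204, had 0.06, 0.37 and 0.01 TPM against 6.05, 6.15 and 8.67 TPM.

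Of 18800 genes tested, 2713 rose (14.4% of all) and 2805 fell (14.9%) with siNRP1#5 at an adjusted p under 0.05. Among them 879 rose and 1151 fell by more than 2-fold, and 272 rose and 235 fell by more than 4-fold. The median log2 fold change over all genes was 0.01. Values of the 2 groups did not overlap for 31.4% of all genes, called or not. With only the 6 siNRP1#5 and siNT samples in the fit, 971 genes rose and 1165 fell. With limma-trend on log2(TPM + 1), where the median of all genes moved to -0.11, 1280 rose and 3756 fell, so 25.4% of its calls were higher against 49.2% in the count test. Without siNRP1#5 replicate 1 the counts were highest, with 3396 genes that rose and 3397 that fell, and without siNT replicate 1 they were lowest, with 2018 and 2271.

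The 15 named genes with the largest rise, taken among genes with at least 5 CPM in the higher group and no overlap, included CD180, TNFRSF6B, TNFSF18 and TNFSF15. CD180, a Toll-like receptor homologue of B cells, had 18.8, 22.6 and 8.67 CPM with siNRP1#5 and 0, 0.19 and 0.04 CPM with siNT. Only 0, 9 and 2 expected counts stand behind the siNT values, so the size of its log2 fold change of 7.61 (SE 0.87, adjusted p = 1.26e-05) rests on few reads. TNFSF18, the ligand of the costimulatory receptor GITR, had 10.4, 7.22 and 8.26 CPM against 0.16, 0.13 and 0.15 CPM. TNFRSF6B, the soluble decoy receptor DcR3, had 17.2, 16.5 and 91.2 CPM against 0.58, 0.25 and 0.85 CPM, with siNRP1#5 replicate 3 far above the others. TNFSF15 had 57.3, 26.7 and 92.9 CPM against 4.59, 3.31 and 5.01 CPM. In each of these 4 genes the lowest siNRP1#5 sample was several times the highest siNT sample.

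TAGLN, an actin-binding protein of smooth muscle, was the most abundant of the 15, with 303, 471 and 395 CPM against 28.2, 40.4 and 35.8 CPM (log2 fold change 3.48, SE 0.19, adjusted p = 4.79e-10). MMP9, a gelatinase, had 23.9, 30.6 and 60.7 CPM against 2.09, 1.73 and 4.74 CPM. AQP5, a water channel of epithelia, had 21.4, 35.6 and 27.2 CPM against 1.59, 3.08 and 2.60 CPM. RASIP1, a Ras-interacting regulator of endothelial cells, had 8.32, 4.69 and 20.6 CPM against 0.27, 0.36 and 0.40 CPM. The choice of these genes required separate groups. For MMP9 and RASIP1 replicate 3 was the highest siNRP1#5 sample. ALPP, LSP1, LRRC32, H19, TRBC2, HPCAL4 and GSG1 complete the 15, with log2 fold changes of 3.49 (GSG1) to 4.84 (LSP1). H19, an imprinted long non-coding RNA, had the widest standard error of them (log2 fold change 4.68, SE 1.39, adjusted p = 0.022). Its call was lost without siNT replicate 1 (adjusted p = 0.077) or siNT replicate 2 (adjusted p = 0.076).

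Among the 15 with the largest fall, NRP1 came first. GALNT3, a glycosyltransferase that starts mucin-type O-glycans, followed with 1.63, 0.57 and 1.23 CPM against 19.5, 17.6 and 18.6 CPM (log2 fold change -4.00, SE 0.24, adjusted p = 8.55e-10). MPC1, a subunit of the mitochondrial pyruvate carrier, had 1.93, 1.28 and 1.34 CPM against 17.9, 19.9 and 13.7 CPM. HFE, the haemochromatosis protein that takes part in iron sensing, had 1.49, 1.52 and 2.05 CPM against 12.9, 13.9 and 20.3 CPM. MTMR4, a phosphoinositide phosphatase, had 8.95, 4.90 and 7.15 CPM against 53.6, 53.5 and 54.0 CPM. The siNT samples were close to each other in GALNT3 and MTMR4 and spread more in MPC1 and HFE. In all 4 genes every siNRP1#5 sample lay far below every siNT sample.

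CSF3, CXCL8, C3 and LCN2, which encode the granulocyte growth factor G-CSF, interleukin-8, a complement protein and lipocalin-2, stood among the largest falls as well. CXCL8 had 39.5, 12.9 and 48.5 CPM against 399, 166 and 174 CPM (log2 fold change -2.87, SE 0.57, adjusted p = 0.0018), with siNT replicate 1 the highest sample. The count of cells of a type and the RNA per cell cannot be told apart in these bulk samples. CSF3 had 1.02, 0.81 and 3.68 CPM against 32.4, 14.8 and 23.9 CPM. C3 (log2 fold change -3.11, SE 0.94, adjusted p = 0.025) and LCN2 (-2.995, SE 0.97, adjusted p = 0.034) varied more among replicates. Groups without overlap were required of all 15 genes by their choice. The call of C3 was lost without siNRP1#5 replicate 1 (adjusted p = 0.074), siNRP1#5 replicate 2 (0.083) or siNT replicate 3 (0.071). The call of LCN2 was lost without siNRP1#5 replicate 1 (adjusted p = 0.091), siNRP1#5 replicate 2 (0.11), siNT replicate 1 (0.056) or siNT replicate 3 (0.095). SLAIN1, LRRC15, ANKRD52, PRDM8, PIK3AP1 and HSD17B11 complete the 15, at log2 fold changes from -3.43 (SLAIN1) to -2.67 (HSD17B11).

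**Figure D2:**
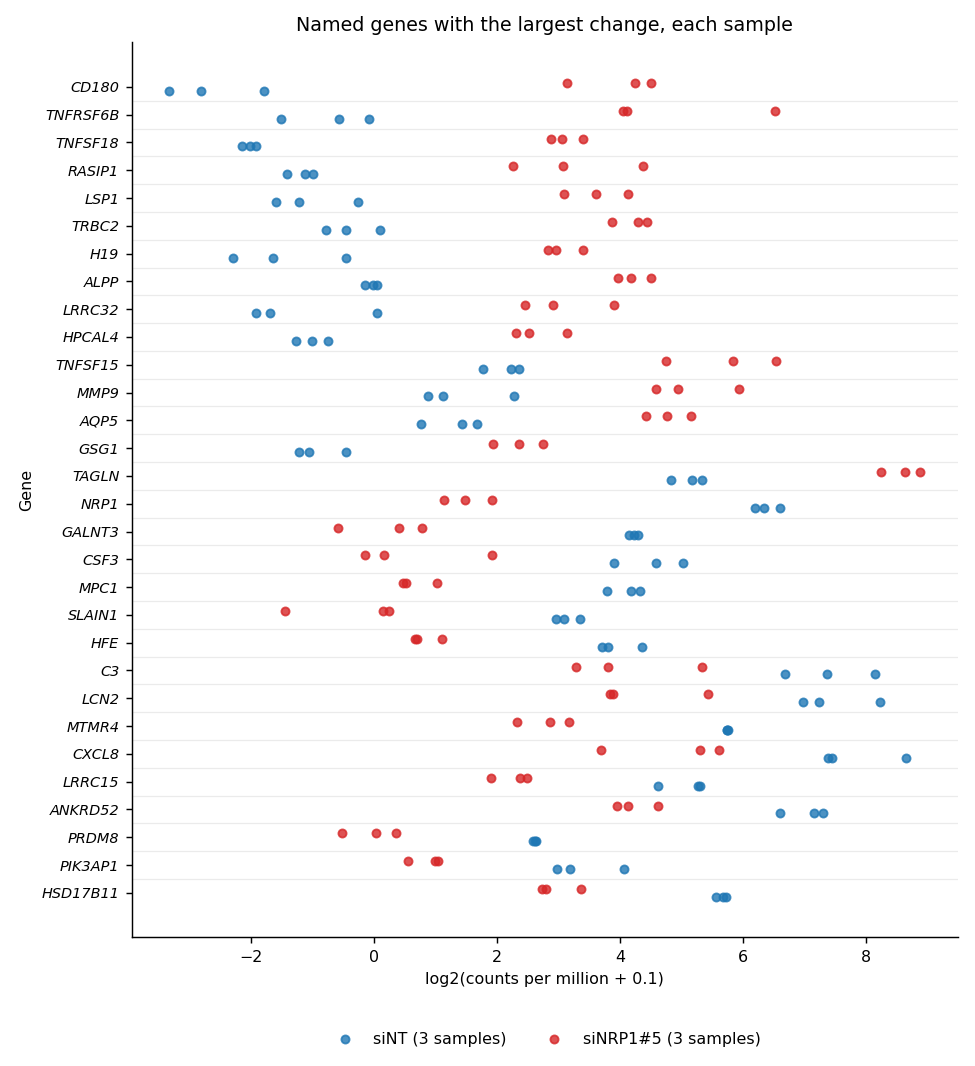
The 15 genes with the largest rise (top) and the 15 with the largest fall (bottom) in each of the 6 samples. The horizontal axis is log2(CPM + 0.1), blue points are the 3 siNT samples and red points the 3 siNRP1#5 samples. No gene has overlapping groups, which the choice of these genes required, and CD180 has the widest gap.

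Of 25 tested genes of the neuropilin system (neuropilins, plexins, class 3 semaphorins, VEGF ligands and receptors), 11 rose (44%) and 5 fell (20%). Over all genes 14.4% rose and 14.9% fell. The 5 include NRP1, the target, whose fall the siRNA was made to bring about. The other 9 did not pass, and the median log2 fold change was 0.26. With only the 6 samples in the fit 7 rose and 3 fell, and on TPM 6 rose and 4 fell, with a median of 0.0056. Without siNRP1#5 replicate 1 the median was 0.45. KDR, the main VEGF receptor of endothelium, had 7.79, 5.73 and 6.30 CPM against 1.65, 1.20 and 1.90 CPM (log2 fold change 2.06, SE 0.18, adjusted p = 1.32e-07). PLXNC1, the plexin that binds SEMA7A, fell by 1.66 on the log2 scale, and SEMA3G, a class 3 semaphorin, fell by 1.54, both from levels under 5 CPM. NRP2, the other neuropilin, which did not pass, had 35.0, 21.4 and 43.1 CPM against 43.2, 40.2 and 46.8 CPM (adjusted p = 0.19). Among 12 tested growth factor receptors linked to NRP1, 1 rose (8.33%) and 5 fell (41.7%). With only the 6 samples in the fit 1 rose and 1 fell. The riser was MET, the hepatocyte growth factor receptor, with 152, 101 and 89.2 CPM against 38.1, 28.1 and 34.03 CPM (log2 fold change 1.77, SE 0.17). TGFBR2, a TGF-beta receptor, fell by 1.60, ERBB3 by 1.03 and ERBB2 by 0.57 on the log2 scale. EGFR had a log2 fold change of -0.36 (adjusted p = 0.056) and passed without siNRP1#5 replicate 1 (adjusted p = 0.014). PDGFRB (0.70, adjusted p = 0.10) and PDGFRA (-1.23, adjusted p = 0.53) did not pass. PDGFRB passed in the 6-sample fit blocked on replicate number (adjusted p = 3.07e-04) and with no low-count filter (0.0038). PDGFRA passed without that filter (adjusted p = 0.035), and its log2 fold change was 0.77 without siNT replicate 3. Of 7 tested EGF family ligands 1 rose (14.3%), AREG by 1.34, and 3 fell (42.9%), EGF, EREG and TGFA by 1.50, 0.84 and 0.69. Without siNRP1#5 replicate 2, or with only the 6 samples in the fit, 1 of the 3 falls was called.

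Cytokines and NF-kB targets fell most often among the lists. Of 22 tested members none rose and 15 fell (68.2%, against 14.9% of all genes), with a median log2 fold change of -0.83. CSF3 and CXCL8 are given above. CXCL3, a neutrophil chemokine, had 1.86, 1.79 and 2.73 CPM against 13.8, 6.81 and 6.81 CPM. IL11 had 33.4, 33.5 and 37.6 CPM against 69.1, 76.8 and 55.0 CPM, and NFKB1, a subunit of NF-kB, had 36.2, 36.9 and 34.1 CPM against 67.7, 71.8 and 60.7 CPM. All 3 were lower in every siNRP1#5 sample than in any siNT sample. They were named for their small adjusted p, a choice that favours separate groups. Over the list 13 of the 22 members had groups without overlap, against 31.4% of all genes. The 15 were 9 without siNRP1#5 replicate 1, siNRP1#5 replicate 2 or siNT replicate 1, and 10 with only the 6 samples in the fit. Of 17 tested antigen presentation genes 9 fell (52.9%) and 1 rose (5.88%, against 14.4% of all genes). HLA-F (log2 fold change -1.70), PDCD1LG2 (-1.57), PSMB9 (-1.30) and TAP2 (-0.66) had the smallest adjusted p, and the 9 were 5 without siNRP1#5 replicate 1 and 4 with only the 6 samples. Of 29 interferon-stimulated genes 8 fell (27.6%), among them XAF1 (-1.42) and MX2 (-1.14), and 2 rose (6.90%). With only the 6 samples 5 of these genes fell and none rose. None rose without siNRP1#5 replicate 2, siNT replicate 1 or siNT replicate 3, and 4 rose without siNRP1#5 replicate 3.

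Glycolysis and hypoxia genes, which the transcription factor HIF-1 is known to induce, moved the other way. Of 20 tested members 13 rose (65.0%, against 14.4% of all genes) and none fell, with a median log2 fold change of 0.68. NDRG1 had 1321, 1539 and 2863 CPM against 375, 320 and 680 CPM (log2 fold change 2.06, SE 0.33, adjusted p = 2.31e-04). SLC2A3, the glucose transporter GLUT3, had 145, 135 and 295 CPM against 30.9, 27.6 and 54.1 CPM. EGLN3, a prolyl hydroxylase that acts on HIF, had 37.2, 42.5 and 66.2 CPM against 10.4, 11.8 and 16.8 CPM. In all 3 genes replicate 3 was the highest sample of both groups, and the groups did not overlap. These 3 were named for their small adjusted p as well. Over the list 9 of the 20 members had groups without overlap, against 31.4% of all genes. Without siNT replicate 1 the 13 were 8, and with only the 6 samples in the fit they were 4. With shNRP1#5 1 of the 20 rose and 16 fell against shNT, with a median log2 fold change of -0.86.

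**Figure D3:**
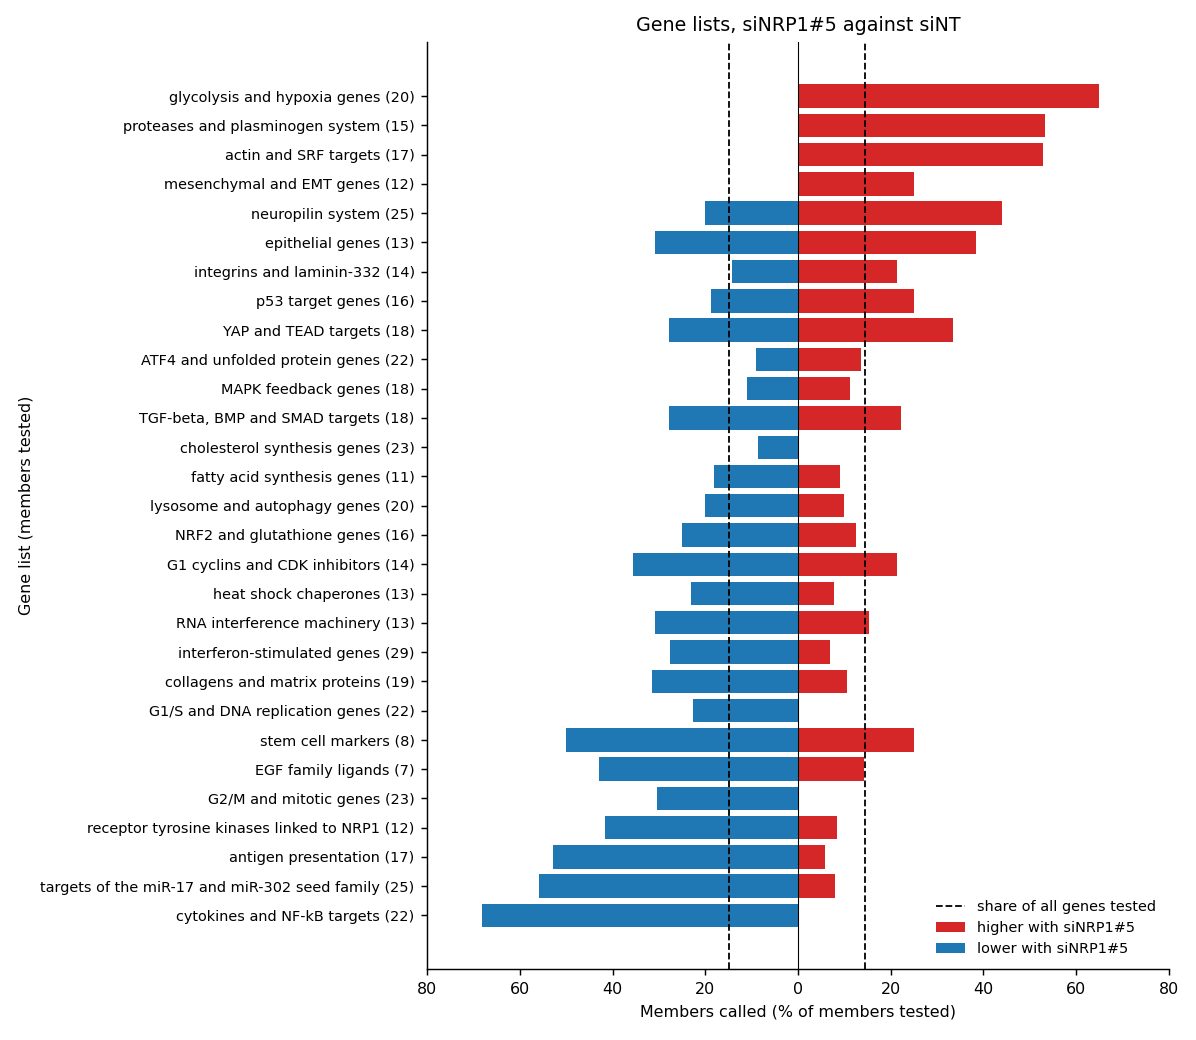
Members of 29 gene lists called with siNRP1#5 against siNT, as percent of the members tested (number in brackets). Red bars to the right are members that rose, blue bars to the left members that fell, and dashed lines mark the shares of all genes tested (14.4 and 14.9%). Glycolysis and hypoxia genes reach 65.0% higher, and cytokines and NF-kB targets 68.2% lower.

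Proteases and their inhibitors rose in 8 of 15 tested members (53.3%, against 14.4% of all genes) and fell in none. Without siNRP1#5 replicate 3, however, 2 fell. TIMP3, an inhibitor of metalloproteinases, had 505, 514 and 577 CPM against 117, 118 and 92.7 CPM (log2 fold change 2.29, SE 0.14, adjusted p = 1.58e-09). SERPINB2, a plasminogen activator inhibitor, had 8.44, 11.2 and 14.5 CPM against 1.54, 1.39 and 0.93 CPM. MMP1, a collagenase, had 185, 134 and 178 CPM against 75.4, 52.3 and 56.2 CPM. The risers thus held enzymes (MMP1 and MMP9) and inhibitors (TIMP3 and SERPINB2). Of 17 actin and SRF targets 9 rose (52.9%) and none fell. TPM4, a tropomyosin, had 1238, 1242 and 1237 CPM against 822, 852 and 808 CPM, CNN1, a calponin, rose by 3.32 on the log2 scale and VCL, vinculin, by 0.43. With limma-trend on TPM 4 of the 17 rose and 3 fell, and with only the 6 samples in the fit 3 rose and none fell.

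Of 13 tested epithelial genes 5 rose (38.5%) and 4 fell (30.8%), and of 12 mesenchymal genes 3 rose (25%) and none fell. Over all genes 14.4% rose and 14.9% fell. Without siNRP1#5 replicate 2, 2 epithelial genes fell, and without siNT replicate 1, 1 mesenchymal gene rose. CDH1, which encodes E-cadherin, had 9.92, 8.60 and 10.3 CPM with siNRP1#5 and 0.82, 1.31 and 1.75 CPM with siNT (log2 fold change 2.88, SE 0.35, adjusted p = 4.90e-06). SNAI1, a known repressor of CDH1, had 17.6, 19.1 and 30.3 CPM against 7.51, 7.95 and 10.6 CPM (log2 fold change 1.36, SE 0.23). So both were higher in every siNRP1#5 sample. ZEB1 (-0.14, adjusted p = 0.70) and VIM (0.01, adjusted p = 0.97) did not pass. KRT18 rose by 0.96 on the log2 scale, and CLDN3, with overlapping groups, fell by 0.78 (adjusted p = 0.044). That call was lost without siNRP1#5 replicate 1 (adjusted p = 0.19), siNRP1#5 replicate 2 (0.13), siNT replicate 2 (0.060) or siNT replicate 3 (0.21). CLDN4 (0.44, adjusted p = 0.069) and CLDN7 (-0.12, adjusted p = 0.81) did not pass. CLDN4 did pass without siNRP1#5 replicate 1 (adjusted p = 0.0042), with no low-count filter (0.025) and in the 6-sample fit blocked on replicate number (0.041). CLDN7 passed as lower without siNRP1#5 replicate 3 (log2 fold change -0.73, adjusted p = 0.041). PGR, at or under 0.44 CPM in every sample, was called lower, with too few counts for a fold to be given. ESR1 and ALDH1A1 were too low to be tested, at or under 0.12 CPM in all 6 samples. Of the 8 stem cell markers tested 2 rose (25%) and 4 fell (50%). ITGA6 (0.44, adjusted p = 0.0090) and LGR5 (at or under 0.21 CPM) rose, and CD44, CD24, ALDH1A3 and BMI1 fell by 0.98, 1.01, 0.71 and 0.84. With only the 6 samples in the fit none rose and 2 fell. CD44 was the most abundant of these, with 372, 365 and 592 CPM against 799, 855 and 977 CPM. ITGB4, the partner of integrin alpha 6 in hemidesmosomes, fell by 2.07, and LAMA3, a chain of its ligand laminin-332, by 1.29.

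None of the G1/S or G2/M genes tested rose, against 14.4% of all genes. Of the G1/S genes 22.7% fell and of the G2/M genes 30.4%, against 14.9% of all genes. CDK2, the kinase of the G1/S transition, had 27.03, 19.8 and 27.6 CPM against 103, 103 and 104 CPM (log2 fold change -2.06, SE 0.12, adjusted p = 5.32e-10). CDKN1C, an inhibitor of cyclin-dependent kinases, had 26.9, 57.3 and 50.5 CPM against 5.25, 6.62 and 11.9 CPM and rose. Of 22 G1/S and DNA replication genes 5 fell and none rose, with MCM7 (a subunit of the replicative helicase, -2.03) and CDC45 (-1.42) ahead. Of 23 G2/M and mitotic genes 7 fell, none by more than 0.97 on the log2 scale, and none rose. With only the 6 samples in the fit 2 of the G2/M genes fell, without siNRP1#5 replicate 1 12 fell, in the 6-sample fit blocked on replicate number 12 fell, and on TPM 16 fell. Of the G1/S genes 2 fell with only the 6 samples, 1 rose without siNRP1#5 replicate 1 and 2 rose without siNRP1#5 replicate 3. Among p53 targets 4 of 16 rose (25%) and 3 fell (18.8%), with MDM2 at -1.37. The 4 were 7 without siNRP1#5 replicate 1 and 1 without siNRP1#5 replicate 3. With only the 6 samples none of the p53 targets rose.

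The other lists are given with their shares, to be read against 14.4% higher and 14.9% lower over all genes. Of 14 G1 cyclins and CDK inhibitors 3 rose (21.4%) and 5 fell (35.7%), but 3 fell without siNRP1#5 replicate 2 and 2 without siNT replicate 1. Of 19 collagens and matrix proteins 2 rose (10.5%), TNC among them, and 6 fell (31.6%), COL4A2 by 1.28 and COL5A1 by 0.89 among them. Without siNRP1#5 replicate 2, or with only the 6 samples in the fit, 3 of the 19 fell. Of 13 genes of the RNA interference machinery 2 rose (15.4%) and 4 fell (30.8%), and 1 rose without any single siNRP1#5 sample and none without siNT replicate 3. DICER1 fell by 1.68, AGO1 by 1.44 and TNRC6B by 0.92. PRKRA fell by 0.35, a call that was lost in the 6-sample fit blocked on replicate number (adjusted p = 0.067), without siNRP1#5 replicate 3 (0.076), without siNT replicate 1 (0.060), with no low-count filter (0.14) and with only the 6 samples (0.24).

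Of 18 YAP and TEAD targets 6 rose (33.3%) and 5 fell (27.8%), and without siNRP1#5 replicate 2 the 5 were 3. Of 18 TGF-beta, BMP and SMAD genes 4 rose (22.2%) and 5 fell (27.8%), from SKIL at -1.69 to TGFB2 at 1.06. Without siNRP1#5 replicate 3 8 of them fell, and without siNT replicate 1 2 rose. Of 14 integrins and laminin-332 chains 3 rose (21.4%) and 2 fell (14.3%). Of 16 NRF2 and glutathione genes 2 rose (12.5%) and 4 fell (25%), and 4 rose without siNRP1#5 replicate 1. Smaller counts were found for heat shock chaperones (7.69% higher and 23.1% lower of 13), lysosome and autophagy genes (10% and 20% of 20), fatty acid synthesis genes (9.09% and 18.2% of 11), MAPK feedback genes (11.1% and 11.1% of 18) and ATF4 and unfolded protein genes (13.6% and 9.09% of 22). Of 23 cholesterol synthesis genes 2 fell (8.70%) and none rose. In these last 6 lists the counts were at most 4 and moved by over 1.5 times in at least 1 alternative each.

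Genes whose 3′ UTR pairs with the seed of siNRP1#5 were lower as a group. GCACTTA, the 7 bases that pair with guide bases 2 to 8, was searched on the transcript strand in 1 annotated 3′ UTR per gene. A UTR was known for 13593 of the genes tested (72.3%), and 986 of those (7.25%) held the match. Of 12607 genes without it 14.5% fell and 17.1% rose, with a median log2 fold change of 0.03. Of 890 genes with 1 match 52.8% fell and 4.83% rose (median -0.58), and of 96 genes with 2 or more 66.7% fell and 6.25% rose (median -0.84). Read from the other side, the match was present in 22.7% of the genes that fell, 31.7% of those that fell by more than 2-fold and 2.22% of those that rose. Among genes with no match 1822 fell and 2154 rose.

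**Figure D4:**
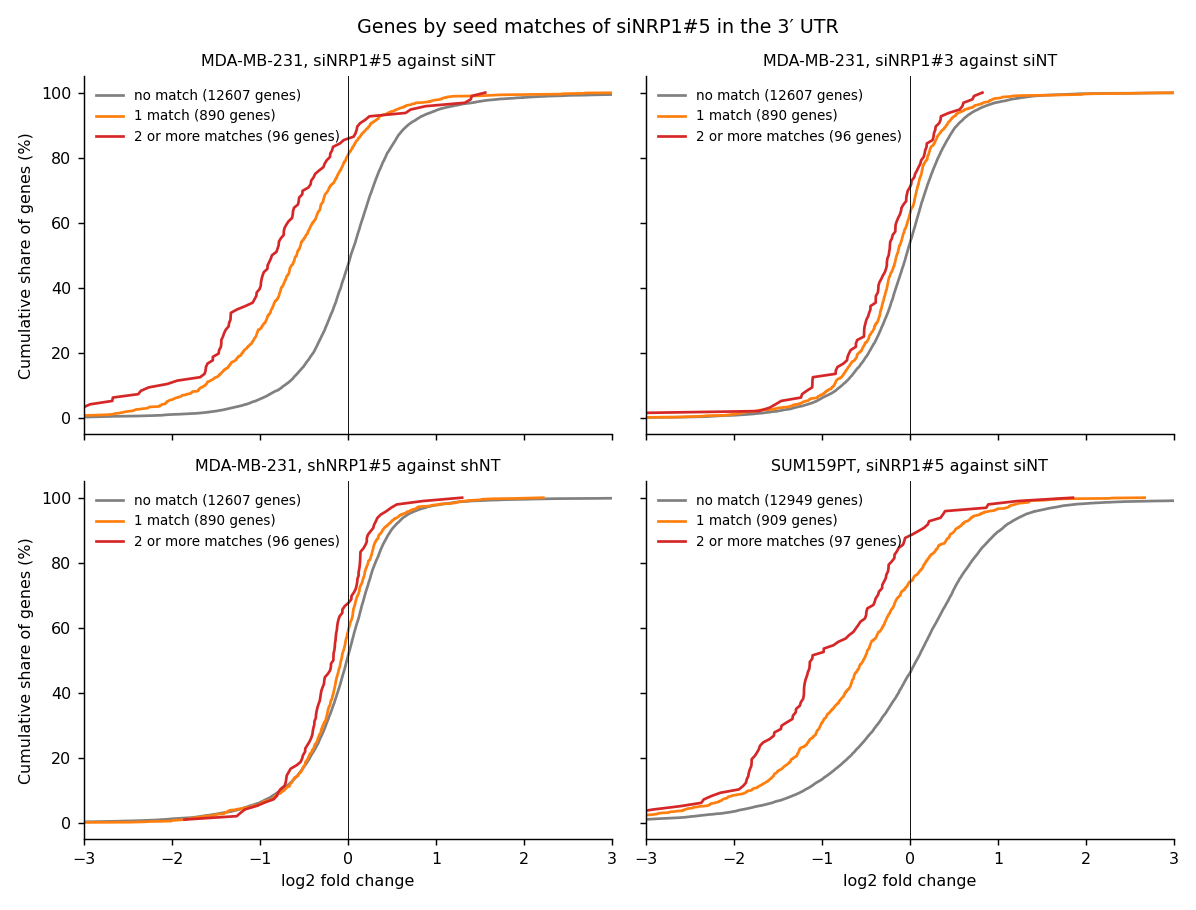
Cumulative share of genes (vertical axis, percent) by log2 fold change (horizontal axis) for genes with 0 (grey), 1 (orange) and 2 or more (red) matches to the seed of siNRP1#5 in the 3′ UTR, in 4 comparisons. With siNRP1#5 the coloured curves lie left of the grey one in both cell lines, with medians of -0.58 and -0.84 in MDA-MB-231. With siNRP1#3 and shNRP1#5 the 3 curves lie closer together.

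The shift was present at every UTR length. For UTRs under 500 bases 62.5% of 56 genes with a match fell, against 11.5% of 4506 without. For UTRs of 4000 bases or more 45.8% of 308 genes with a match fell, against 20.4% of 812 without. In single samples, the median of genes with a match minus that of genes without, on log2(CPM + 0.5) relative to siNT, was -0.37, -0.70 and -0.63 in the siNRP1#5 samples. The siNT samples, each set against the other 2, had 0.08, -0.04 and -0.03, and the siNRP1#3 samples -0.12 to -0.10. The match to guide bases 3 to 8 alone (GCACTT) was found in 3330 further genes, of which 19.3% fell and 13.3% rose, against 12.7% and 18.5% of 9277 genes with neither. The 7 bases that pair with the seed of the passenger strand (CAAGGCT) were held by 1334 genes, of which 23.2% fell, and the match of siNRP1#3 (CACAAGA) by 1062 genes, of which 21.8% fell. Genes that fell had longer UTRs (median 1325 bases) than all genes with a known UTR (median 895 bases). These shares are descriptions, and the part of the seed in them was not tested.

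Matches stood in 8 of the 15 genes with the largest fall (53.3%). They stood in 35.6% of all genes that fell by more than 4-fold and in 7.25% of all genes with a known UTR. None of the 13 genes with the largest rise whose UTR was known held a match. With 2.22% among all genes that rose, 13 genes are too few to read a difference from that. The sites of 5 of the 8 and of CDK2 are printed to show the match in its transcript. Each line gives the transcript strand from 5 bases before to 3 bases after the 19-base window, with the 7-base match in capitals. Coordinates of the match are on GRCh38, and each site lies in the 3′ UTR of the named gene.
GALNT3 (chr2:165748132-165748138, minus): atacactccacttgaaGCACTTAagtc
MPC1 (chr6:166365091-166365097, minus): aaatttgtaaccactaGCACTTAagta
HFE (chr6:26095081-26095087, plus): gataaggatgataaaaGCACTTActtc
MTMR4 (chr17:58490537-58490543, minus): tgctgtctatttctgtGCACTTAacaa
PIK3AP1 (chr10:96595224-96595230, minus): gtgattttactgaaatGCACTTAtatt
CDK2 (chr12:55971830-55971836, plus): agtttcagtattagatGCACTTAagtt

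Of the 19 guide bases 7 paired in the MPC1 window, 11 in the GALNT3 window and 13 in the PIK3AP1 window, where the unbroken run reached guide base 11. None of the windows paired in full. Besides these, BECN1, an autophagy protein, had 24.6, 18.3 and 21.2 CPM against 86.7, 90.7 and 86.2 CPM, and ATF6B, a sensor of unfolded proteins, had 16.7, 18.7 and 19.7 CPM against 90.7, 98.3 and 90.0 CPM. CYBRD1, a ferric reductase, had 17.2, 17.4 and 21.4 CPM against 113.7, 104.5 and 121.6 CPM. Each of the 3 has 1 match. Among the list members named above as lower, SEMA3G, TGFBR2, ITGB4, CD44, MCM7, COL4A2, COL5A1 and AGO1 hold the match as well. So do 3 of the 5 YAP and TEAD targets and 3 of the 6 collagens and matrix proteins that fell. Over all genes that fell and had a known UTR the share was 22.7%. Other lists held fewer. The match was in 1 of the 15 cytokine and NF-kB genes and 1 of the 9 antigen presentation genes that fell. It was in 0 of the 8 interferon-stimulated genes and 0 of the 7 G2/M genes that fell. The part of the match in any of these falls was not tested. Of the genes with 3 or more matches, NFIA (3 matches) fell by 1.63 on the log2 scale, and NHSL2 (4 matches, under 0.6 CPM) was called higher at 0.88, a call that was lost in the fit blocked on replicate number (adjusted p = 0.062), with DESeq2 (0.090) and without any of 4 single samples (0.12 to 0.14).

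Bases 3 to 8 of the guide are bases 2 to 7 of 15 human microRNAs of 2370 mature sequences in RefSeq (GRCh38.p14), the miR-302, miR-372, miR-373, miR-519 and miR-520 family. No human microRNA has the full seed of siNRP1#5 at its bases 2 to 8. Members are shown with bases 2 to 8 in capitals.
hsa-miR-302a-3p: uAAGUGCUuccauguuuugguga
hsa-miR-372-3p: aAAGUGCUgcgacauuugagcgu
hsa-miR-519a-3p: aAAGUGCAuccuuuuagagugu
Of 25 tested genes listed as known targets of this and the related miR-17 family, 14 fell (56.0%) and 2 rose (8%). Their median log2 fold change was -0.50, and over all genes 14.9% fell and 14.4% rose. MICA, a stress ligand of NK cells, fell by 2.16, LATS2, a Hippo kinase, by 1.68, TGFBR2 by 1.60 and ZBTB7A, a transcription factor, by 1.42. These 4 hold the 7-base match, as do 5 of the 25 in all, and all 5 fell. With only the 6 samples in the fit 8 of the 25 fell.

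Set directly against siNRP1#3, without siNT, siNRP1#5 had 3769 genes higher (20.0%) and 3560 lower (18.9%) of 18800. CDH1 had 0.05, 0.13 and 0.10 CPM with siNRP1#3, so the direct difference was 6.71 on the log2 scale (adjusted p = 4.09e-09, edgeR). BACE1, a protease of the amyloid precursor, had 79.9, 83.3 and 90.4 CPM with siNRP1#5 and 11.7, 11.0 and 12.0 CPM with siNRP1#3. Against siNT BACE1 rose by 0.93 on the log2 scale with siNRP1#5, so this gap is not that rise alone. GNAI2, a G protein subunit, had 1121, 1611 and 1729 CPM with siNRP1#5 and 258, 227 and 283 CPM with siNRP1#3. TIMP3 had 60.3, 57.6 and 59.0 CPM with siNRP1#3, below its siNT values. CSF3 had 125, 57.1 and 81.01 CPM with siNRP1#3, above its siNT values. Of the 30 genes with the largest change 26 differed between both siRNAs, and C3, LCN2, LRRC15 and TNFSF15 did not pass. The siNRP1#5 values that helped to choose these 30 genes enter this test too, so their share is favoured by the choice. Both siRNA groups were compared with the same siNT samples elsewhere, so no overlap of those lists is given. The genes with a match to the seed of siNRP1#5 had a median log2 fold change of -0.16 with siNRP1#3 against siNT (986 genes), and the 1062 genes with a match to the seed of siNRP1#3 had -0.36 there and -0.07 with siNRP1#5.

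The shRNA with the same sense sequence gave other changes. With shNRP1#5 8.79% of genes rose and 11.9% fell against shNT, and the change differed from that of siNRP1#5 for 23.7% of all genes. It differed for 26 of the 30 genes with the largest change. The siNRP1#5 and siNT values that chose these 30 genes enter this test too, so their share is favoured by the choice. Delivery, selection, harvest time, the control and the depth of the NRP1 fall differ together between both experiments and cannot be told apart. NRP1 stayed at 83.8 to 101 CPM with shNRP1#5, against 188 to 209 CPM with shNT. With siNRP1#5 3.37% of its mean siNT level was left. MPC1 had 26.6, 20.0 and 27.6 CPM with shNRP1#5 and 13.8, 15.2 and 14.1 CPM with shNT, so it rose there and fell with siNRP1#5. SDC1, a syndecan with 2 seed matches, had 143, 163 and 162 CPM with shNRP1#5 against 145, 129 and 130 CPM with shNT, and 26.2, 23.6 and 26.4 CPM with siNRP1#5 against 135, 136 and 119 CPM with siNT. NEDD9, a scaffold of focal adhesions, moved apart as well, with 57.6, 71.2 and 100 CPM against 16.1, 20.5 and 23.6 CPM with the siRNA and 3.24, 2.27 and 2.12 CPM against 13.1, 12.8 and 11.4 CPM with the shRNA. Of the 2805 genes that fell with siNRP1#5, 516 fell with shNRP1#5 (18.4%, and 23.0% of the 2246 that fell there), and 190 rose. Of the 2713 that rose, 384 rose with shNRP1#5 (14.2%, and 23.2% of 1653) and 364 fell. Genes with a seed match had a median log2 fold change of -0.09 with shNRP1#5.

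In SUM159PT, where siNRP1#5 has 2 samples, 9.00% of 20067 genes rose and 8.89% fell against siNT. NRP1 fell by 4.31 on the log2 scale there. Of the 2597 genes that fell in MDA-MB-231 and were tested in SUM159PT, 814 fell there as well (31.3%, and 52.3% of the 1557 that fell there among the genes of the MDA-MB-231 test), and 12 rose. Of those with a seed match 48.9% of 517 fell, and of those without 28.6% of 1714. Of 2545 genes that rose in MDA-MB-231, 745 rose in SUM159PT (29.3%, and 43.4% of 1718) and 27 fell. A test of the difference between both lines passed for 1.74% of 23416 genes, and for 2 of the 30 genes with the largest change, RASIP1 and LRRC15. The values that chose these 30 genes enter this test as well. By list, of 22 cytokine and NF-kB genes 8 fell in SUM159PT and none rose, and of 20 glycolysis and hypoxia genes 2 rose and 1 fell. In SUM159PT the genes with 1 seed match had a median log2 fold change of -0.53 (909 genes), those with 2 or more -1.11 (97 genes) and those without 0.08. In HS578T, where siNRP1#5 has 3 samples, the medians lay closer together. Genes with 1 match had a median of -0.06 with 13.9% lower (916 genes), those with 2 or more 0.03 with 11.8% lower (102 genes), and those without 0.09 with 8.10% lower (12939 genes). NRP1 fell by 2.66 on the log2 scale there. The 3 HS578T siNRP1#5 samples held 59 genes typical of MDA-MB-231 (at least 20 CPM in its NT controls and at most 0.5 CPM in those of HS578T) at a median of 24.8, 18.1 and 13.2% of the MDA-MB-231 level, against 0.69, 0.99 and 2.18% in HS578T siNT. In SUM159PT 62 such genes sat at 0.17 and 0.23% with siNRP1#5 and 0.14 to 0.18% with siNT. So the HS578T siNRP1#5 samples stand apart, and the part of these markers in the HS578T values was not tested.

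**Figure D5:**
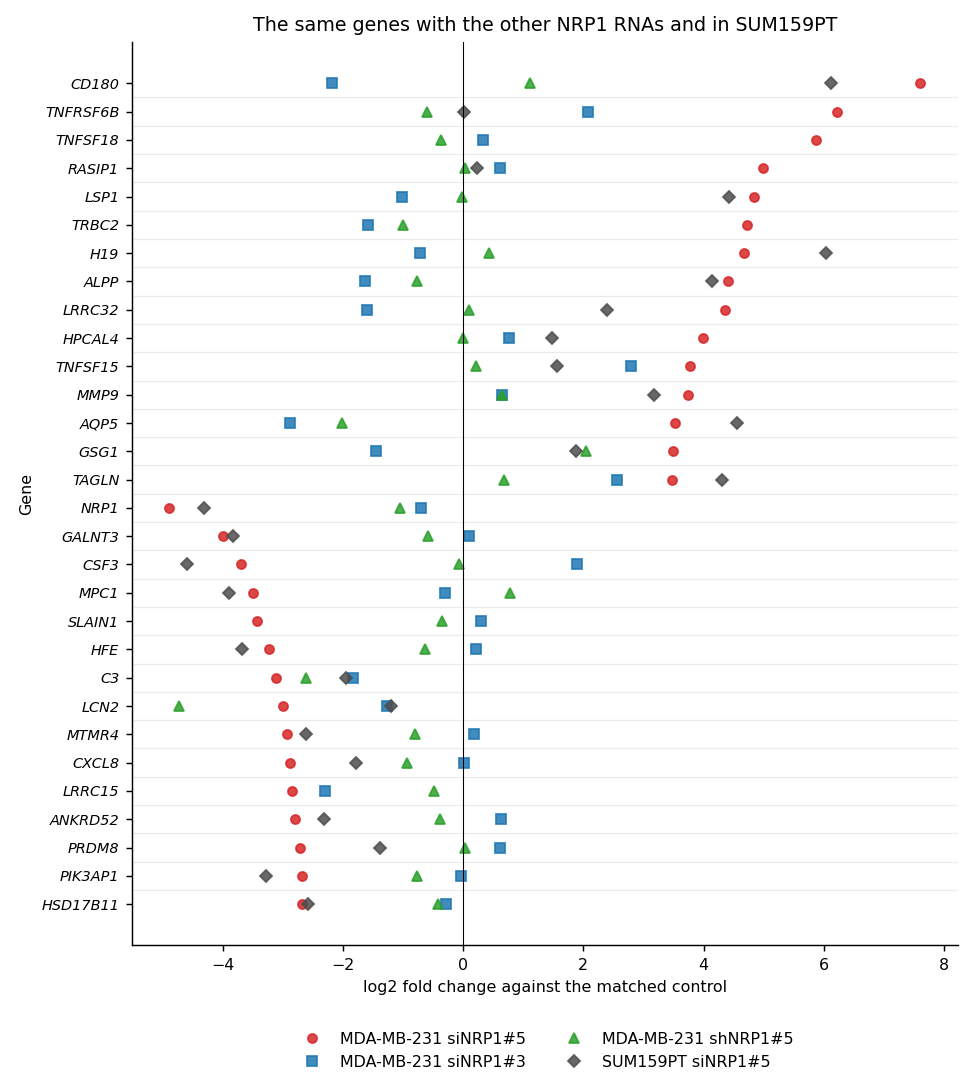
Log2 fold change against the matched control (horizontal axis) of the 30 genes with the largest change with siNRP1#5 in MDA-MB-231 (red circles), beside siNRP1#3 (blue squares), shNRP1#5 (green triangles) and siNRP1#5 in SUM159PT (dark diamonds, where tested). Most diamonds lie on the side of the red circles, as GALNT3 does at -3.82 and -4.00, while RASIP1 lies at 0.24 and 5.00.

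RNA of the other cell lines was looked for in the 6 samples, from markers of HS578T and SUM159PT. The 164 genes at 20 CPM or more in the NT controls of HS578T and at most 0.5 CPM in those of MDA-MB-231 had a median of 0.03, 0.06 and 0.04% of the HS578T value in the siNRP1#5 samples. In the siNT samples they sat at 0, 0.11 and 0.47%, so siNT replicate 3 had the most. Their summed level was 37.9 to 59.0 CPM with siNRP1#5 and 8.18 to 49.5 CPM with siNT, and 60 to 76 of the 164 were at 0 counts in a siNRP1#5 sample against 92, 20 and 1 in the siNT samples. The 122 such markers of SUM159PT sat at 0.06% in each siNRP1#5 sample and at 0.06, 0.10 and 0.23% in the siNT samples. Of 101 markers that were tested 13 rose and 2 fell, where over all genes 14.4% rose and 14.9% fell. Of the genes named above LSP1, H19, LRRC32 and PDGFRA are among the 101. LSP1, H19 and LRRC32 were highest among siNT in replicate 3, at 35, 30 and 44 counts against 5 to 12 in replicates 1 and 2, and had 231 to 583 counts in the siNRP1#5 samples. Without siNT replicate 3, 2453 genes rose and 2576 fell over all genes, and 15 of 20 glycolysis and hypoxia genes rose and 11 of 22 cytokine and NF-kB genes fell. The part of these markers in the other results was not tested.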

How the data were processed

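RNA of MDA-MB-231 transfected with siNRP1#5 or siNT was analysed, with the other samples of the series where named. Per the submitters' processing notes and the study's methods, the authors trimmed reads with Trim Galore 0.6.5, checked them with FastQC 0.11.9, aligned them with STAR 2.7.2b to GRCh38 and quantified genes and transcripts with RSEM 1.3.3 (Ensembl 114, GENCODE 48). The deposited expected counts are not scaled for library size. The deposited TPM values are scaled for length and depth by RSEM, and the deposited isoform percent is the share of a gene's TPM that each transcript holds. RSEM divides reads between similar genes, so that paralogues carry this uncertainty.

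Expected counts were rounded. All 18 MDA-MB-231 samples entered 1 edgeR 4.0.16 model with 6 group means (filterByExpr, TMM, glmQLFit with robust estimation, glmQLFTest), with Benjamini-Hochberg adjustment over 18800 genes and a threshold of 0.05. Columns without a sample numbered 0. Fold changes are log2. On simulated counts of the comparison (18366 genes) the model recovered 82 of 100 genes changed by a log2 fold change of 1 and 100 of 100 changed by 2, and 3.7% of 189 calls were false. Only these genes were changed there, and samples were drawn independently with the spread of each gene taken from the fit. In the data 5518 genes were called and same-numbered samples deviated together. The simulated share of false calls may therefore not hold for the data. NRP1 transcript groups follow the study. UTRs were taken from GENCODE 44, on the same build, 1 transcript per gene, and microRNAs from RefSeq. R 4.3.3, limma 3.58.1, DESeq2 1.42.0, Python 3.11.15, numpy 2.4.6, pandas 2.3.3 and matplotlib 3.10.9 were used.

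Same-numbered samples of siNRP1#5 and siNT deviated from their group means together (r = 0.31, 0.30 and 0.39). The numbers were therefore taken to pair the samples in the fits blocked on replicate number, a pairing that comes from the data. The main model and the permutation tests left the samples unpaired. No 2 replicates were copies of each other: between any pair, chi-square divided by its degrees of freedom was at least 24.7. It was 83.0 to 151 between siNRP1#5 replicates and 24.7 to 60.3 between siNT replicates. The main model took no separate spread for siNRP1#5. No molecular identifiers are named in the sources used here, so depth bears on counting error only. The comparison, the 29 gene lists and the seeds were chosen with earlier results of these data known. Named genes are NRP1, the 15 largest rises and 15 largest falls (called, at least 5 CPM in the higher group, no overlap), the 4 called members of each list with the smallest adjusted p, genes that the study names, the 10 smallest adjusted p of the direct and of the difference test, and called genes with 3 or more seed matches. NRP2, EPCAM and SPARC, and the HS578T and SUM159PT marker sets, lie outside this rule, and NRP2 was named after its values were seen. Some list members that the rule names are not reported here.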

Additional observations from a re-analysis of the deposited data

Results flagged for a closer look

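The change with siNRP1#5 differed between MDA-MB-231 and SUM159PT for 8 of the named genes, in an edgeR model of all 52 samples in which the difference itself was tested (adjusted p over 23416 genes). Each value below is the log2 fold change in MDA-MB-231 minus that in SUM159PT, and SUM159PT has 2 siNRP1#5 samples. The difference was 4.94 for CDH1 (adjusted p = 0.0050), with 2.88 in MDA-MB-231 and -2.03 in SUM159PT, where CDH1 alone did not pass. It was 4.76 for RASIP1 (adjusted p = 4.25e-04) and 2.53 for TIMP3 (adjusted p = 1.31e-04), genes that rose in MDA-MB-231 and had 0.24 and -0.26 in SUM159PT. ITGA2 differed by 2.48 (adjusted p = 0.021), from 0.55 to -1.94, and was called in both lines. ATF6B differed by 1.48 (adjusted p = 0.0047) and TGFBR2 by 1.55 (adjusted p = 0.030). Both fell in both lines, by more in SUM159PT, at -3.83 and -3.16. CLDN4 differed by -2.11 (adjusted p = 0.026), with a rise of 2.52 in SUM159PT. LRRC15 differed by -4.26 (adjusted p = 0.027) and was too low for a test within SUM159PT. What sets the lines apart at these genes was not tested.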

How the results depend on the processing

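NRP1 kept its direction and call under all 13 alternatives. With 2713 genes higher and 2805 lower as reported, DESeq2 gave 3107 and 2757, upper quartile normalization 2744 and 2743, and no filter on low counts 2620 and 2876. Limma-trend on log2(TPM + 1) gave 1280 higher, and the fit of only siNRP1#5 and siNT samples gave 971 higher and 1165 lower. Counting only genes with a known UTR and no seed match (an alternative chosen after seeing the data) gave 2154 higher and 1822 lower. That set holds 12607 genes. It leaves out the genes with a match, of which 54.2% fell and 4.97% rose, and the genes without a known UTR. Leaving out single samples gave 2018 to 3396 higher and 2271 to 3397 lower against siNT, 3139 to 4042 higher and 2921 to 3669 lower against siNRP1#3, and 1672 to 3154 higher and 1575 to 2905 lower in the difference from shNRP1#5. The difference between cell lines was called for 407 genes, and for 961 with DESeq2. The median of genes with a seed match, -0.61, was -0.24 for a 6-base match, and -0.72 to -0.55 with a sample left out.

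With the replicate number as a block 2794 genes were higher and 2922 lower (all 18 samples), and 2814 and 3142 (6 samples). In the 18-sample block NHSL2 was the only named gene to lose its call. In the 6-sample block ACACA, NHSL2, PRKRA and SPRY2 lost theirs and CLDN4 and PDGFRB gained one, and the block changed no other call of a named gene.

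Signs turned in CLDN7, PDGFRA, ZEB1 and VIM, none of them called as reported. With a sample left out CLDN7 ranged from -0.73 to 0.16 (above 0 without siNRP1#5 replicate 1 or 2, and called at -0.73 without siNRP1#5 replicate 3), PDGFRA from -1.86 to 0.77 (above 0 without siNT replicate 3, and called without the filter on low counts) and ZEB1 from -0.49 to 0.17 (above 0 without siNRP1#5 replicate 3 or siNT replicate 1). VIM was -0.23 on TPM, -0.015 without the filter, -0.0069 in the 6-sample block and from -0.15 to 0.13 with a sample left out, below 0 without siNRP1#5 replicate 2, siNT replicate 1 or siNT replicate 3. Of the 157 named genes 39 lost their call with only the 6 samples in the fit and 19 on TPM, and the cause was not tested. Depth limits genes under about 1 CPM most.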
